A study of Homo sapiens with 4 samples.

Results

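Genes that mark the lung-derived LM2 cells were followed across 2 metastatic derivatives of MDA-MB-231 breast cancer cells, with and without depletion of the RNA-binding protein hnRNPM. The members were chosen by gene name: SPARC, IL13RA2, VCAM1, TNC, ANGPTL4, PTGS2, LTBP1 and FSCN1 from the published lung metastasis literature, and FKBP10 and CADM1 for their high level in LM2 in these same libraries. Of the 10 names, 9 have a row among the 20329 genes of the deposited table, and VCAM1 was not analysed here. Because the difference between LM2 and BM1 entered the choice, it is described below without a test. Only the response to the knockdown was tested.

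MDA-MB-231 is a human triple-negative breast cancer line. BM1 (1833) is its derivative from bone metastasis and LM2 (4175) its derivative from lung metastasis, and both were kept in DMEM with 10% FBS. Each line stably expressed a lentiviral shRNA, either a non-specific one (control) or one against hnRNPM (knockdown), and each of the 4 groups is 1 library of stranded, paired-end, polyA-purified RNA. All groups therefore share the parental line, the growth medium and lentiviral delivery, and the shRNA sequence was not analysed here. Levels are FPKM, fragments per kilobase of transcript scaled to the number of mapped fragments, and differences are on log2(FPKM + 1), where 1 is a 2-fold change and low genes show less than their true change. A difference between 2 libraries has no replicate check. The only comparison tested sets both knockdowns against both controls with cell line as a block. It was fitted with limma across 13928 genes whose mean FPKM reached 1, with 1 residual degree of freedom for each gene. Since each group is 1 library, that degree of freedom is the difference of the knockdown change between the lines. A gene whose change differs between the lines therefore gets a larger SE.

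As background, a tumour cell that settles in the lung has to leave the vessel, survive in a foreign tissue and remodel the matrix around it. Published lung metastasis genes cover these steps: secreted matrix proteins such as SPARC and tenascin C, adhesion molecules such as VCAM1, enzymes such as cyclooxygenase 2, and regulators of the vessel wall such as ANGPTL4. They are known for marking MDA-MB-231 derivatives that colonise the lung, and part of that knowledge comes from LM2-type cells themselves.

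The libraries carried the knockdown and most of the listed profile of the line. HNRNPM was at 171 FPKM in control and 28.4 in depleted BM1 cells, and at 132 and 20.3 in LM2, so 16.6% and 15.4% of the control level was left (-2.59 ± 0.25, SE; limma adjusted p = 0.00318). VIM lay between 1160 and 2354 FPKM, CD44 between 155 and 223 and EGFR between 31.4 and 80.6. EPCAM lay between 3.0 and 4.59 FPKM, and GATA3 reached at most 3.33. The exception was ERBB2, expected to be low in a triple-negative line, at 13.5 to 21.9 FPKM and above EPCAM in every library. ESR1, PGR and FOXA1 were not analysed here. Mitochondrial genes took 8.80% to 9.31% of all FPKM in the controls and 11.8% to 12.8% in the knockdowns, and the part of this shift in the results below was not tested. Low values step in units that put the depth at 22800000 to 41500000 fragments per library, or at a whole multiple of that, so no count was recovered. Markers of endothelial cells summed to at most 1.55 FPKM in any library, and those of immune cells to 1.74 to 7.19 FPKM, most of it CD14.

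Calls of the knockdown test depend on the settings of the fit. Below, genes counted as risen or fallen are those whose limma adjusted p was under 0.05. Over all genes 762 passed the threshold of an adjusted p of 0.05, 27 did with a pseudocount of 0.1, and none did with limma without the filter, with quantile normalization or without the line term (3735, 3255 and 1548 genes at an unadjusted p under 0.05). Of the 15 genes called below, HNRNPM included, 13 remained with size factors, 12 with a pseudocount of 0.5 and 1 with a pseudocount of 0.1. Each lost its call when any 1 library was left out. In those fits, which have no term for line and so mix in the line difference, the change ran from -5.76 to -2.39 for MMP1, 0.37 to 3.28 for EREG, 1.52 to 3.32 for ID1 and 1.0 to 2.09 for NEDD9. It ran from 1.20 to 3.27 for THBS1, 0.68 to 2.42 for ITGAV, 0.57 to 2.14 for ENAH, 0.64 to 1.69 for P3H2 and -0.0053 to 3.35 for COL1A1. Among them THBS1, TGFB2, ITGAV, ICAM1, P3H2 and TBXAS1 overlap other listed genes, so part of their fragments may be shared.

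Not every member was higher in LM2, and these levels are a description only. The 6 genes SPARC, FKBP10, CADM1, IL13RA2, TNC and ANGPTL4 had both LM2 libraries above both BM1 libraries. LTBP1 went the other way, with both LM2 libraries below both BM1 libraries. FSCN1 was lower in LM2 than in BM1 under either shRNA, and PTGS2, at 0.314 to 1.16 FPKM, was higher in LM2 in the controls only. Among the 8 members that passed the filter, 6 were at least 2-fold higher in LM2 in the controls, where 6.98% of all tested genes were, and none was at least 2-fold lower (5.26% of all genes). In the knockdowns 5 members were at least 2-fold higher (4.41% of all genes) and 1, LTBP1, was at least 2-fold lower (4.63%). Their median line difference was 2.69 in the controls and 2.02 in the knockdowns, against 0.03 and -0.06 over all genes, and since the members were chosen on this contrast nothing is read from these counts. FKBP10 and CADM1 passed the filter through their LM2 libraries alone.

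**Figure D1:**
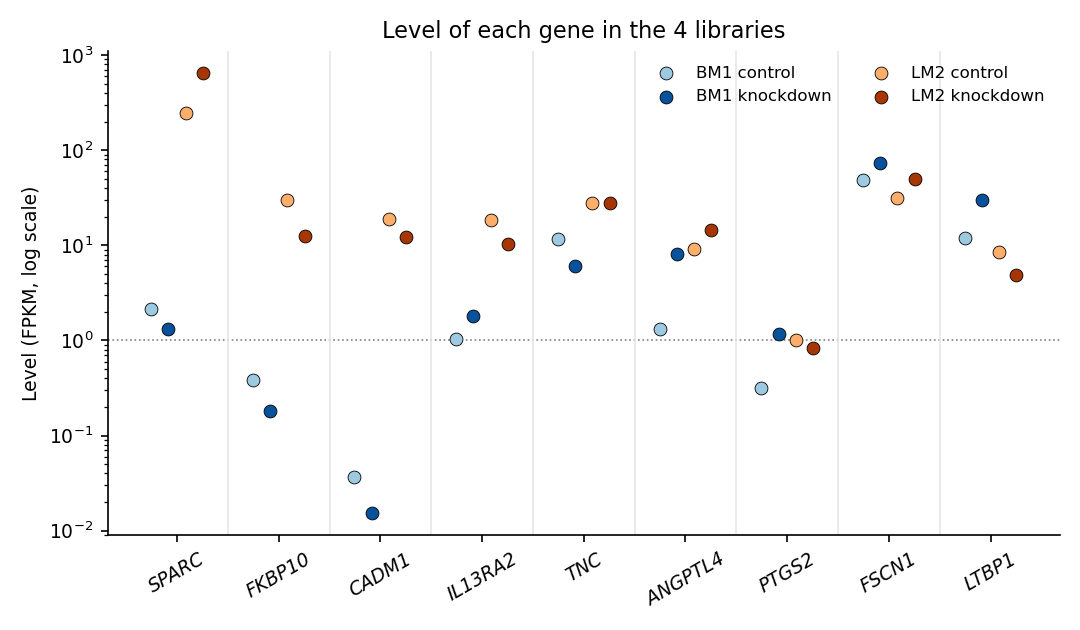
FPKM of the 9 genes with a row in the 4 libraries, on a log axis; each point is 1 library. SPARC spans from 1.31 FPKM in the BM1 knockdown to 651 in the LM2 knockdown, while LTBP1 and FSCN1 lie lower in LM2 than in BM1 under the same shRNA.

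SPARC encodes a secreted matricellular glycoprotein that binds collagen and changes how cells hold on to their matrix. The gene (ENSG00000113140.10) lies on the minus strand of chromosome 5 at 151040657 to 151066726 in the deposited table, whose build is GRCh37 according to the submitters' processing notes. In BM1, SPARC was at 2.13 FPKM with the control shRNA and 1.31 with the hnRNPM shRNA, and in LM2 at 248 and 651. Both LM2 libraries lay far above both BM1 libraries. Among the 13928 tested genes SPARC ranked 11545 and 12935 by level in BM1, and 232 and 70 in LM2. Its line difference was 6.31 in the controls and 8.14 in the knockdowns (497-fold), rank 1 of all tested genes in each.

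With hnRNPM depleted, SPARC was 2.63-fold higher in LM2 and 1.63-fold lower in BM1, so the directions differ between the lines. Over both lines the change was 0.48 ± 0.40 (SE, limma adjusted p = 0.50), which did not pass the test. COL1A1, a fibrillar collagen gene and one of the fibroblast markers, was at 1.94, 11.1, 29.2 and 74.2 FPKM in the same order of libraries. It rose by 1.67 ± 0.28 with the knockdown (adjusted p = 0.0170). Of 10 fibroblast markers 7 have a row and 4 reached 1 FPKM in any library, with sums of 4.67 and 15.7 in BM1 and 31.0 and 79.6 in LM2. Most of each LM2 sum is COL1A1. In the same order of libraries, PDGFRB was at 1.37, 3.24, 0.699 and 2.93 FPKM, and LUM at 0.0213, 0.465, 0.0239 and 1.61. ACTA2 was at 1.04, 0.453, 0.871 and 0.246 FPKM. THY1 stayed at or below 0.0843, PDGFRA at or below 0.250 and COL3A1 at or below 0.525. The part of these markers in the SPARC result was not tested. In bulk RNA, fewer cells with a transcript and less transcript per cell cannot be told apart.

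The SPARC promoter is shown because SPARC has the largest line difference of all tested genes. RefSeq places the 250 bases before its start at chr5:151686916-151687165, minus strand, in GRCh38.p14, and capitals mark each GGAGGA, searched on both strands:
SPARC promoter: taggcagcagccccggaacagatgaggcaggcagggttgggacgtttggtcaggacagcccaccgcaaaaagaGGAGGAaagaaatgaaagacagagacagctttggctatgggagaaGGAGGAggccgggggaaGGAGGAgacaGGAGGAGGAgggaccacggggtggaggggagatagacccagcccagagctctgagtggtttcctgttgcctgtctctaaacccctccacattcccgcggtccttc
This window holds 5 copies of GGAGGA, at positions -177, -132, -115, -105 and -102 from the start site, of which the last pair overlaps. At least 1 copy occurs in 31.8% of 35116 promoter windows of that length, and 5 or more occur in 0.669%. The motifs TATAAA, a promoter box, and TGANTCA, the AP-1 site, were not found there. GC content was 59.2%, against a median of 58.0% over all windows.

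TNC, the gene of tenascin C, encodes a large hexameric matrix protein of wound edges and metastatic niches. TNC (ENSG00000041982.15) lies on the minus strand of chromosome 9 at 117781857 to 117880536. TNC measured 11.7 FPKM (control shRNA) and 6.01 (hnRNPM shRNA) in BM1, against 27.8 and 27.6 in LM2. The LM2 libraries were nearly equal to each other and above both BM1 libraries, of which the knockdown was the lower. The line difference was thus 1.18 in the controls (2.37-fold) and 2.03 in the knockdowns (4.59-fold). The knockdown change of TNC over both lines was -0.44 ± 0.29 (SE, limma adjusted p = 0.384).

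Around SPARC and TNC, 15 matricellular proteins were listed, of which 9 could be tested. THBS1, which encodes thrombospondin 1, rose by 2.24 ± 0.36 (SE, limma adjusted p = 0.0158), from 39.6 to 324 FPKM in BM1 cells and, in LM2, from 170 to 472. None of the list fell at the threshold. The list's median change was 0.48, against -0.01 over all genes, of which 2.71% rose and 2.76% fell. Between lines the list was mixed, with a median difference of -0.13 averaged over both treatments. FN1, the fibronectin gene, was higher in LM2, with 24.4 and 38.7 FPKM in BM1 and 201 and 250 in LM2. TGFBI was at 3.25 and 13.3 FPKM in BM1 cells and, in LM2, at 57.4 and 61.8. SPOCK1, a proteoglycan gene of the SPARC family, was lower in LM2, at 4.29 and 2.15 FPKM against 7.76 and 3.64 in BM1. Its knockdown change was -0.83 (limma adjusted p = 0.0917), short of the threshold.

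ANGPTL4 encodes a secreted inhibitor of lipoprotein lipase that also acts on the vessel wall. The gene (ENSG00000167772.11) lies on the plus strand of chromosome 19 at 8428173 to 8439257, where ELAVL1 and RAB11B-AS1 overlap it on the opposite strand. The sources used here do not say whether the authors' counting used strand. For ANGPTL4 the BM1 values were 1.32 FPKM without and 8.20 with hnRNPM depletion, and the LM2 values 9.11 and 14.4. The BM1 control stood apart at the bottom, and the BM1 knockdown came close to the LM2 control. The knockdown was 6.20-fold above the control in BM1 and 1.58-fold in LM2, so the line difference was 2.12 in the controls and 0.74 in the knockdowns.

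Of the 8 members tested, ANGPTL4 had the smallest p for the knockdown. Its change over both lines was 1.30 ± 0.34 (SE, limma unadjusted p = 0.00462), higher in both lines, and it missed the threshold after adjustment over all genes (adjusted p = 0.0635, with 0.0624 to 0.924 over the alternative settings). Its promoter is shown for that reason. That of PTGS2 is set beside it, since these are the members with the exact sequence TATAAA among those examined (SPARC, TNC, ANGPTL4, PTGS2 and LTBP1). Variants of this box, such as TATATAA in the TNC window, were not searched. The window of VCAM1, the last of the 6 members that have one, was not examined. RefSeq gives the ANGPTL4 window as chr19:8363905-8364154, plus strand, and that of PTGS2 as chr1:186680424-186680673, minus strand, both GRCh38.p14, and capitals mark TATAAA:
ANGPTL4 promoter: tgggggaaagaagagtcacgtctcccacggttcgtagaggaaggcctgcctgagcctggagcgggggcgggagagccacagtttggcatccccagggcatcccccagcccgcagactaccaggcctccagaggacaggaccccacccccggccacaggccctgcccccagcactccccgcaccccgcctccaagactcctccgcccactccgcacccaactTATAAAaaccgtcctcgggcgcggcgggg
PTGS2 promoter: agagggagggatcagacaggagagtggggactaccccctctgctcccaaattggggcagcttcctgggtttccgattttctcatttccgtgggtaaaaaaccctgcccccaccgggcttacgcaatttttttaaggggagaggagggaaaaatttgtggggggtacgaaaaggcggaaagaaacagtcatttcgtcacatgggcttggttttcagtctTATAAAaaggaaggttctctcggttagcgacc
The box starts at position -29 from the ANGPTL4 start and at -32 from that of PTGS2, and it occurs on either strand in 10.7% of all windows. ANGPTL4 also holds 2 copies of GGGCGG, which 42.6% of windows hold. The windows differ in GC content, at 68.8% for ANGPTL4 and 50.4% for PTGS2.

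ANGPTL4 is a known target of PPAR-delta and of hypoxia, and 13 genes with the same regulators were listed, of which 9 could be tested. None rose or fell at the threshold, with a limma unadjusted p under 0.05 for 3 of them (24.9% of all genes) and a median change of -0.04. VEGFA, the vascular growth factor gene, had the largest value at -1.07 (adjusted p = 0.0775). Between lines their median difference was -0.33. CPT1A, a gene of fatty acid oxidation, was lower in LM2, at 9.84 and 10.2 FPKM against 21.1 and 19.2 in BM1. CA9, a hypoxia-induced carbonic anhydrase gene, was at 0.663 and 1.57 FPKM in BM1 cells and, in LM2, at 5.18 and 6.34.

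FKBP10 encodes a prolyl isomerase of the endoplasmic reticulum that helps collagen chains to fold. FKBP10 (ENSG00000141756.18) lies on the plus strand of chromosome 17 at 39968932 to 39979469. In BM1, FKBP10 was at 0.382 FPKM with the control shRNA and 0.182 with the hnRNPM shRNA, and in LM2 at 29.6 and 12.5. Only the LM2 libraries exceeded 1 FPKM, and the knockdown was the lower library in each line. The line difference was 4.47 in the controls, rank 5 of all tested genes, and 3.51 in the knockdowns, rank 15. In LM2 the control was 2.37-fold above the knockdown. Over both lines the change was -0.70 ± 0.30 (SE, limma unadjusted p = 0.0440, adjusted p = 0.188). Since FKBP10 was chosen for its level in these LM2 libraries, that p is not independent of the choice.

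Of 18 other collagen folding and crosslinking genes 17 could be tested, 2 rose (2.71% of all genes) and none fell (2.76%). The median change was 0.09, against -0.01 over all genes. PLOD2, a collagen lysyl hydroxylase gene, rose by 2.08 ± 0.41 (SE, limma adjusted p = 0.0268), from 21.0 to 178 FPKM in BM1 cells and, in LM2, from 37.8 to 84.4. P3H2, a collagen prolyl 3-hydroxylase gene overlapped by P3H2-AS1, rose by 1.17 ± 0.28 (adjusted p = 0.0479). SERPINH1, the collagen chaperone gene, was at 24.6 and 38.2 FPKM in BM1 cells and, in LM2, at 36.9 and 77.7 (adjusted p = 0.0994). None of the 17 was at least 2-fold higher in LM2 in the controls (6.98% of all genes), and 2 were in the knockdowns (4.41%).

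CADM1 encodes an immunoglobulin-type cell adhesion molecule. CADM1 (ENSG00000182985.16) lies on the minus strand of chromosome 11 at 115039938 to 115375675. CADM1 measured 0.0369 FPKM (control shRNA) and 0.0153 (hnRNPM shRNA) in BM1, against 18.8 and 12.1 in LM2. CADM1 was thus close to 0 in BM1, and a ratio to such a level would rest on few fragments. The line difference was 4.26 in the controls and 3.69 in the knockdowns, ranks 6 and 8 of all tested genes. In LM2 the control was 1.55-fold above the knockdown, and the change over both lines was -0.31 ± 0.27 (SE, limma adjusted p = 0.512). Of 12 listed relatives from the CADM and nectin families 7 could be tested, with a median of 0.25. Over all genes the median was -0.01, and 2.71% rose and 2.76% fell. CADM4 rose by 1.18 ± 0.25 (adjusted p = 0.0350), from 2.40 to 6.50 FPKM in BM1 cells and, in LM2, from 1.47 to 4.78, and none fell.

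IL13RA2 encodes a receptor that binds interleukin 13 with high affinity and is best known as a decoy. IL13RA2 (ENSG00000123496.7) lies on the minus strand of chromosome X at 114238538 to 114254540. For IL13RA2 the BM1 values were 1.02 FPKM without and 1.79 with hnRNPM depletion, and the LM2 values 18.3 and 10.3. Both LM2 libraries were above both BM1 libraries, and the knockdown was the higher library in BM1 and the lower one in LM2. The line difference was 3.25 in the controls (17.9-fold) and 2.02 in the knockdowns (5.74-fold). Over both lines the change was -0.16 ± 0.33 (SE, limma adjusted p = 0.807).

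In the rest of the IL-13 and IL-4 receptor pathway, 7 of 11 listed genes could be tested and none passed the threshold, with a limma unadjusted p under 0.05 for 1 of them (24.9% of all genes). That gene was STAT6, the transcription factor of the pathway, at -1.01 (adjusted p = 0.0600). The signalling receptor gene IL13RA1 was at 14.8 and 17.7 FPKM in BM1 cells and, in LM2, at 27.7 and 28.8, so it too was higher in LM2. The feedback inhibitor gene SOCS1 was at 0.720 and 0.688 FPKM in BM1 cells and, in LM2, at 3.33 and 3.44. The list's median line difference, averaged over both treatments, was 0.76.

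LTBP1 encodes a latent TGF-beta binding protein, which tethers the inactive growth factor to the matrix. LTBP1 (ENSG00000049323.15) lies on the plus strand of chromosome 2 at 33172039 to 33624576. In BM1, LTBP1 was at 12.0 FPKM with the control shRNA and 30.1 with the hnRNPM shRNA, and in LM2 at 8.47 and 4.90. The BM1 knockdown was the highest library and the LM2 knockdown the lowest. Its line difference was -0.46 in the controls and -2.40 in the knockdowns, where BM1 was 6.15-fold above LM2. The knockdown was 2.5-fold above the control in BM1 and the control 1.73-fold above the knockdown in LM2. Averaged over both lines the change of LTBP1 was 0.29 ± 0.41 (SE, limma adjusted p = 0.710).

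Of 13 genes listed for latent TGF-beta, its activation and fibrillin, 9 could be tested, with a median of 0.14 (-0.01 over all genes). Among them 2 rose (2.71% of all genes) and none fell (2.76%). TGFB2, a TGF-beta ligand gene, rose by 1.60 ± 0.27 (SE, limma adjusted p = 0.0178), from 6.64 to 27.3 FPKM in BM1 cells and, in LM2, from 13.5 to 34.8. ITGAV, an integrin chain gene whose product takes part in activating latent TGF-beta, rose by 1.55 ± 0.32 (adjusted p = 0.0313), from 3.85 to 20.0 FPKM in BM1 cells and, in LM2, from 15.2 to 30.9. Unlike LTBP1, both were higher with the knockdown in each line.

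PTGS2 encodes cyclooxygenase 2, the inducible enzyme of prostaglandin synthesis. PTGS2 (ENSG00000073756.11) lies on the minus strand of chromosome 1 at 186640923 to 186649559. PTGS2 measured 0.314 FPKM (control shRNA) and 1.16 (hnRNPM shRNA) in BM1, against 1.02 and 0.842 in LM2. The BM1 control was the lowest library and the other 3 lay close together. Its mean of 0.833 FPKM is below the filter, so it was not tested. Of 13 other genes of the prostaglandin pathway 8 could be tested, none rose (2.71% of all genes) and 1 fell (2.76%). TBXAS1, the thromboxane synthase gene, fell by 1.25 on the log2 scale (SE 0.28, limma adjusted p = 0.0409), from 2.37 to 0.0876 FPKM in BM1 cells and, in LM2, from 2.53 to 0.928. HIPK2 overlaps TBXAS1 on the opposite strand.

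FSCN1 encodes fascin, which bundles actin filaments in filopodia and invadopodia. FSCN1 (ENSG00000075618.17) lies on the plus strand of chromosome 7 at 5632454 to 5646286. For FSCN1 the BM1 values were 48.0 FPKM without and 72.9 with hnRNPM depletion, and the LM2 values 31.4 and 49.5. The knockdown was the higher library in each line, at 1.52-fold in BM1 and 1.58-fold in LM2, and the line difference hardly moved (-0.60 in controls, -0.55 in knockdowns). Over both lines the change was 0.62 ± 0.25 (SE, limma unadjusted p = 0.0371, adjusted p = 0.174). Of 13 listed actin-bundling and filopodia genes 11 could be tested, with a median of 0.09. Over all genes the median was -0.01, and 2.71% rose and 2.76% fell. ENAH, an actin filament elongation gene, rose by 1.35 ± 0.28 (adjusted p = 0.0317), and none fell. LCP1, which encodes the actin bundler L-plastin, was at 0.618 and 0.489 FPKM in BM1 cells and, in LM2, at 19.9 and 7.95, opposite to FSCN1 in its line difference. The median line difference of that list was 0.03.

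**Figure D2:**
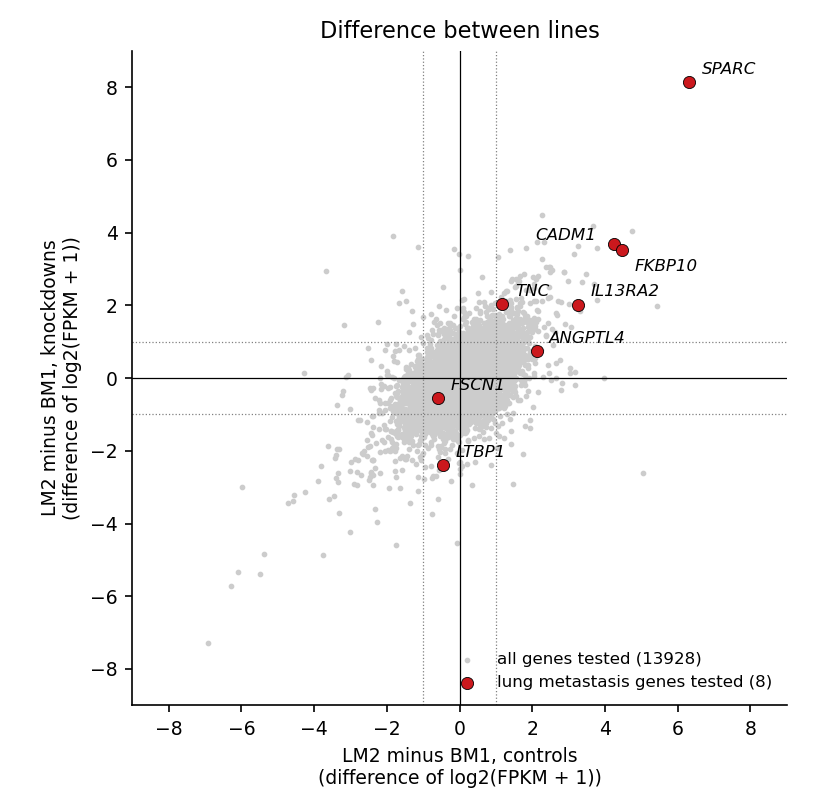
LM2 minus BM1 on log2(FPKM + 1) in the controls (x axis) and in the knockdowns (y axis); each point is 1 of 13928 tested genes, with the 8 tested members marked. SPARC lies farthest out at 6.31 and 8.14, and LTBP1 and FSCN1 fall below 0 on both axes.

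No member passed the knockdown test over both lines, where 5.47% of all tested genes did (2.71% higher and 2.76% lower). At an unadjusted p under 0.05 there were 3 of 8 members (ANGPTL4, FSCN1 and FKBP10), against 24.9% of all genes. FKBP10 was chosen for its high level in LM2 in these same libraries, and that level enters its knockdown change. Nothing is therefore read from this count. By the 2-fold rule within BM1, ANGPTL4 and LTBP1 were higher (10.1% of all genes) and no member was lower (6.20%). Within LM2, SPARC was higher (3.83% of all genes) and FKBP10 lower (4.24%). The median member change was 0.22 in BM1 and -0.30 in LM2, against 0.00 and -0.04 over all genes.

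**Figure D3:**
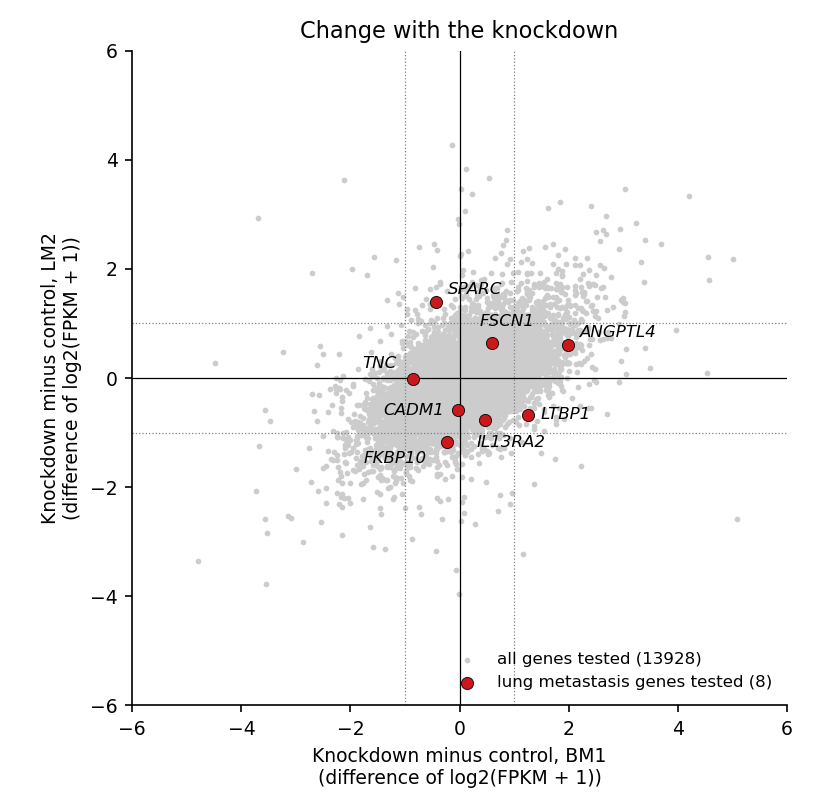
Knockdown minus control on log2(FPKM + 1) in BM1 (x axis) and LM2 (y axis); grey points are all 13928 tested genes, red points the 8 tested members, and dotted lines mark 2-fold. ANGPTL4 lies at 1.99 and 0.61, while SPARC, IL13RA2 and LTBP1 have opposite signs in the 2 lines.

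The members did not share 1 direction with the knockdown. SPARC, IL13RA2 and LTBP1, 3 of the 8 tested members, had opposite signs in BM1 and LM2, against 30.9% of all genes. That count is near the share over all genes, so nothing particular to the members is read from it. For SPARC and LTBP1 the change was also at least 2-fold in 1 line (3.02% of all genes). The line difference was larger with the knockdown than without it for SPARC (by 1.83) and TNC (by 0.85), about equal for FSCN1 (0.05), and lower for CADM1 (-0.56), FKBP10 (-0.95), IL13RA2 (-1.24), ANGPTL4 (-1.38) and LTBP1 (-1.94). The BM1 values of CADM1 and FKBP10 lie near the floor, so the shifts of these genes depend on the pseudocount. As a plain ratio of LM2 over BM1, CADM1 was at 510-fold in the controls and 791-fold in the knockdowns. FKBP10 was at 77.5-fold and 68.6-fold, and these ratios rest on few BM1 fragments. A shift of at least 1 either way occurred in 4 of 8 members and in 10.7% of all genes. With 1 library per line and treatment, the difference of response between the lines could not be tested.

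Across the 4 libraries the profiles of FKBP10 and CADM1 were the closest among the members, at a Euclidean distance of 0.44 between centred log2(FPKM + 1) values, and SPARC and LTBP1 the farthest apart (8.86). FKBP10 and CADM1 were both chosen for a high level in LM2 in these same libraries. Their closeness follows in part from that choice, so nothing is read from it. Closest to IL13RA2 outside the members was NUPR1 (0.35), a stress-response gene at 0.117 and 0.336 FPKM in BM1 cells and, in LM2, at 6.69 and 4.73. AKAP12, a scaffold protein gene, came next (0.50), then DLC1 (0.67). FKBP10 and CADM1 had RP4-536B24.2 as their nearest gene (0.61 and 0.43), at 0.102 and 0.162 FPKM in BM1 cells and, in LM2, at 28.5 and 18.3. FKBP10 was next closest to LCP1 (0.86) and DLC1 (0.89), and CADM1 to DLC1 and XXbac-BPG300A18.13 (0.81 each). For SPARC the nearest genes, RP4-536B24.2 (3.19), MAGEB2 (3.37) and XXbac-BPG300A18.13 (3.88), were all distant. With 4 libraries, these distances rest mainly on the difference between lines.

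Other published lung metastasis genes gave a mixed picture too. Of 15 listed beside the members 14 could be tested, 3 rose (2.71% of all genes) and 1 fell (2.76%). The median change was 0.49, against -0.01 over all genes. The list comes in part from LM2-type cells, so its direction between lines is not independent evidence. ID1, an inhibitor of differentiation gene, rose by 2.42 ± 0.58 (SE, limma adjusted p = 0.0488), from 9.37 to 162 FPKM in BM1 cells and, in LM2, from 35.0 to 64.8. EREG, which encodes the EGF-family ligand epiregulin, rose by 1.83 ± 0.35 (adjusted p = 0.0254), from 1.24 to 12.1 FPKM in BM1 cells and, in LM2, from 15.8 to 35.3. NEDD9, a scaffold gene of focal adhesions, rose by 1.54 ± 0.26 (adjusted p = 0.0172). MMP1, the interstitial collagenase gene, fell from 355 to 11.9 FPKM in BM1 cells and, in LM2, from 33.3 to 2.34 (-4.08 ± 0.35, adjusted p = 0.00285), and like LTBP1 it was lower in LM2 than in BM1. The list's median line difference was 0.44. MMP2, the gelatinase gene, was at 0.0171 and 0.0469 FPKM in BM1 cells and, in LM2, at 4.07 and 13.1.

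VCAM1 itself has no value here, but 13 of 14 listed NF-kappaB targets and VCAM1 partners could be tested. ICAM1, a related endothelial and tumour cell adhesion gene, rose by 1.24 ± 0.30 (SE, limma adjusted p = 0.0493), from 9.90 to 17.5 FPKM in BM1 cells and, in LM2, from 6.14 to 22.5, and none fell. The list's median change was 0.59, against -0.01 over all genes, of which 2.71% rose and 2.76% fell. ITGB1, the chain that pairs with alpha 4 integrin to bind VCAM1, had a change of 0.98 (adjusted p = 0.0836). ITGA4, the gene of the alpha 4 chain, has no value here either. Between lines the median difference was 0.04. CCL2, a monocyte-attracting chemokine gene, was at 86.3 and 92.0 FPKM in BM1 cells and, in LM2, at 0.127 and 0.756.

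**Figure D4:**
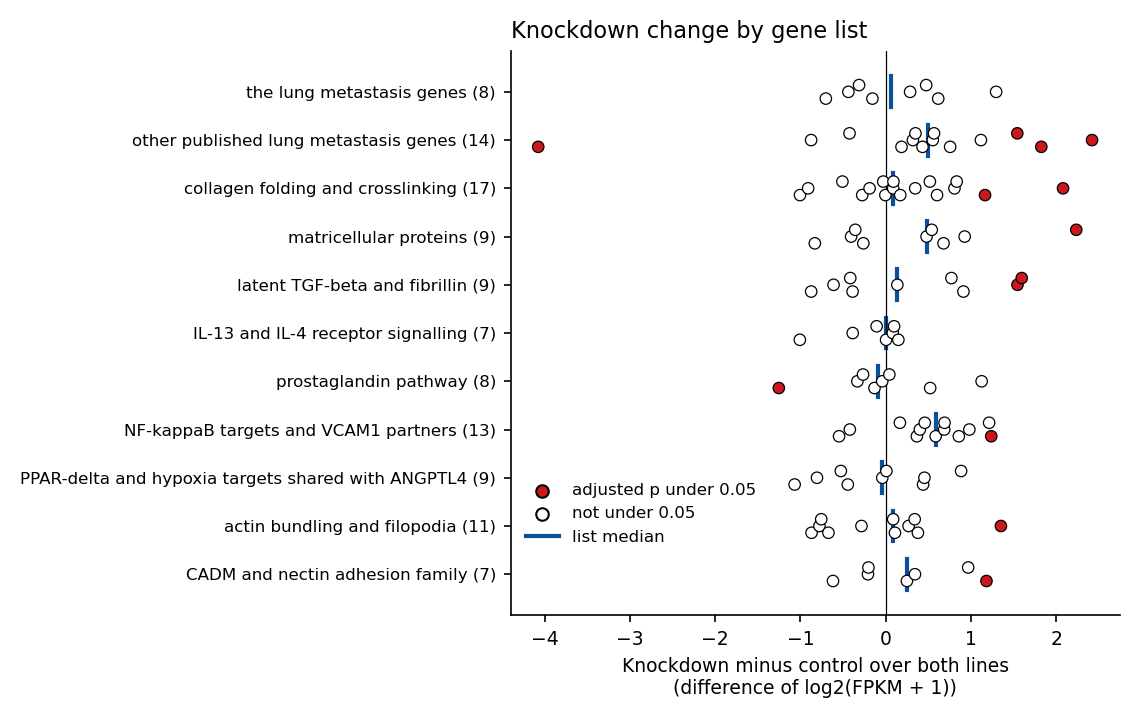
Knockdown minus control over both lines on log2(FPKM + 1) for the members and 10 related gene lists; each circle is 1 tested gene, filled where the limma adjusted p is under 0.05, and the bar is the list median. None of the 8 members is filled, and the filled genes of the other lists lie mostly to the right of 0, with MMP1 and TBXAS1 to the left.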

How the data were processed

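RNA sequencing gave 1 library for each of 4 groups. The authors deposited FPKM values per gene; per the submitters' processing notes, STAR 2.5.3a, Cuffdiff 2.2.1 and GRCh37 were used, while the sources used here do not give the annotation release or the use of strand. Of 20369 entries, 40 with a repeated gene ID were left out. Values were analysed as log2(FPKM + 1) with limma 3.58.1 (R 4.3.3), terms for cell line and treatment, two-sided p-values and Benjamini-Hochberg adjustment over 13928 genes with mean FPKM of at least 1; the threshold was 0.05. The scripts were tested on simulated data. Nothing says that libraries came from separate cultures. The p-values rest on how far the knockdown change differs between the lines, with the variance shared across genes by limma, and not on replicate libraries. The cell line pairs knockdown and control, since both come from the same line. Members and lists were chosen with earlier results of these data known. Named genes are all members, HNRNPM, the nearest profiles of 4 members, list genes past the threshold, and genes among the 3 largest changes or line differences of each list. Alternatives were pseudocounts of 0.1 and 0.5, no filter, size factors, quantile normalization, no line term and leaving out each library. Promoter sequences come from RefSeq (GRCh38.p14), and table coordinates were not converted.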

Additional observations from a re-analysis of the deposited data

Results flagged for a closer look

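In 3 tested members, and in PTGS2, which was below the filter, the knockdown library was above its control in 1 line and below it in the other. Of all tested genes 30.9% did so, a share near that of the tested members. With 1 library per group the difference between lines was not tested. The change in LM2 minus the change in BM1, on log2(FPKM + 1), was 1.83 for SPARC, which was higher with the knockdown in LM2 (1.39) and lower in BM1 (-0.44). It was -1.94 for LTBP1, which was higher in BM1 (1.26) and lower in LM2 (-0.68). For IL13RA2 it was -1.24, with 0.46 in BM1 and -0.77 in LM2. For PTGS2, at 0.314 FPKM in the BM1 control and 0.842 to 1.16 in the other libraries, it was -0.85, with 0.71 in BM1 and -0.13 in LM2.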

How the results depend on the processing

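With all 4 libraries, 207 of 208 recomputed member values kept their sign; the exception was the knockdown change of TNC in LM2, -0.01 in the main setting and 0.03 with size factors. The number of genes past the limma threshold for the knockdown, 762 in the main setting, was 27 with a pseudocount of 0.1 and 0 without the filter, with quantile normalization and with no replicate block (no term for line); it was 613 with a pseudocount of 0.5 and 702 with size factors. Leaving out each library gave 0 to 0 genes (860 to 1943 at an unadjusted p under 0.05); such fits have no term for line, so they mix in the line difference by construction. There the knockdown change ran from -3.60 to 4.55 for SPARC, -1.78 to 1.47 for IL13RA2, -1.45 to 0.58 for TNC, 0.24 to 2.36 for ANGPTL4, -0.91 to 1.49 for LTBP1, 0.32 to 0.92 for FSCN1, -2.94 to 1.53 for FKBP10, -2.44 to 1.82 for CADM1 and -0.0053 to 3.35 for COL1A1. With a pseudocount of 0.1, the 2-fold counts became 1581 genes higher in LM2 in the controls, 925 higher and 1088 lower in LM2 in the knockdowns, and 1050 lower with the knockdown in LM2. The added genes are low ones, since a smaller pseudocount enlarges their differences. Depth, known only up to a whole factor, limits PTGS2 in all libraries and CADM1 and FKBP10 in BM1. No member passed the threshold in any setting.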
